A study of Mus musculus with 2 samples.

Results

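Of the 4944676 non-overlapping windows of 500 bp that tile the mouse autosomes, 1523 held 12 or more tags in the IgG control library of a chromatin immunoprecipitation sequencing (ChIP-seq) experiment. These 1523 windows are described here by what lay in them and around them. They were chosen by their IgG tags alone, on a grid from the start of each chromosome of build NCBIM37, each tag being counted at its 5′ end moved 72 bp downstream. Their IgG counts are therefore given as a description, with no test, whereas anti-FLAG tags, strand, sequence and position were not used in the choice. With 1 exception the windows had at least 450 called bases, and they are compared with the 4785557 other windows that did.

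The study used 2 libraries, 1 with the monoclonal anti-FLAG antibody M2 and 1 with normal mouse IgG. Both came from the same kind of cells, a 3T3 line of embryonic fibroblasts with the genotype Ccnd1-/-, transduced with the retroviral vector MSCV-FLAG/Cyclin D1, so that tagged cyclin D1 is present in the material of both libraries. The cells were untreated, fixed for 15 min in 1% formaldehyde, and their chromatin was sheared to 300 to 500 bp on average. The labels do not say whether the line is 1 clone, and the vector, not the Ccnd1 promoter, drives the tagged protein. There were no replicates, so each value compares these libraries only, and the 95% intervals given cover nothing but counting error. ChIP tags do not measure expression, so the fibroblast label could not be checked by marker RNA.

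Normal IgG recognises no chosen target, so its tags report how much of each stretch of DNA was in the chromatin and how readily it was recovered and mapped. Tandem satellite DNA at centromeres and the ribosomal RNA genes exist in many copies, of which an assembly holds few, and tags from all copies can be placed on those few. Lines of 3T3 cells are known to be aneuploid, so that whole chromosome segments can be present in extra copies. Promoters and other open chromatin can also be recovered more readily from sheared chromatin, with or without a specific antibody.

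There were 9259840 tags in the anti-FLAG library, 8920625 of them on autosomes, and 9312346 in the IgG library, 8924859 of them on autosomes. Each tag was 36 bp long, and 0 tags of a library shared both position and strand, so a window can hold at most 1000 tags per library. The autosomal mean was 1.86 tags per window in both libraries. As a check of the genotype, introns 1 to 3 of Ccnd1, the cyclin D1 gene on chromosome 7, held 1 anti-FLAG and 0 IgG tags in 4955 bp, where 18.5 of each would stand at the autosomal mean. Intron 4 held 14 anti-FLAG and 4 IgG tags, where 4.64 of each would stand at that mean.

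Sequences are shown for 6 of the windows, because they show what kind of DNA the highest and the lowest windows hold. Each is 300 bases from the middle of the window, on the plus strand of NCBIM37, with capitals for bases that belong to a 36-base stretch found more than once in the genome. The window with the most tags in both libraries (chr2:98502601-98502900, in the predicted gene Gm10801), the one with most IgG tags among those with at least 50% of repeated stretches (chr2:98507101-98507400, in Gm10800) and the first window with called sequence on chromosome 9 (chr9:3000101-3000400, nearest to Gm10722) are rich in capitals. The window near the vomeronasal receptor pseudogene Vmn1r-ps2 (chr4:3017601-3017900) had the most IgG tags among windows away from start sites with under 10% of repeated stretches. The window near the pseudogene AY036118 (chr17:39981601-39981900) and the intronic window of Kcnt2, a sodium-activated potassium channel gene (chr1:142318601-142318900), hold 0 bases in capitals. The windows of Gm10722 and AY036118 were added after their values were seen.
Gm10801: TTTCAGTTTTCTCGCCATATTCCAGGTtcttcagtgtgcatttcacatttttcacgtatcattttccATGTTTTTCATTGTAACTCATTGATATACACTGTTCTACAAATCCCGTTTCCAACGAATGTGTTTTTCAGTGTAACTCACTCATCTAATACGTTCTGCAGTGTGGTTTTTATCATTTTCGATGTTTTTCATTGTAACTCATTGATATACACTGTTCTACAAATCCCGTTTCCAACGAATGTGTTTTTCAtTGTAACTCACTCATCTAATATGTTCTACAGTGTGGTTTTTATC
Gm10800: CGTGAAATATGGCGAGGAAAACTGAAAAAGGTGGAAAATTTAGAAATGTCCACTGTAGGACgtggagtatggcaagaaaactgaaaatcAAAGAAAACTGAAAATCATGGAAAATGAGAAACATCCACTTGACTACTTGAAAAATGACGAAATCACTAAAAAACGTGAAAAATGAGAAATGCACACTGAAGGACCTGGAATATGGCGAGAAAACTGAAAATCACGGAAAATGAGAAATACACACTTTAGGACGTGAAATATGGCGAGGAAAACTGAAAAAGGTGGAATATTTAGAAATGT
Gm10722: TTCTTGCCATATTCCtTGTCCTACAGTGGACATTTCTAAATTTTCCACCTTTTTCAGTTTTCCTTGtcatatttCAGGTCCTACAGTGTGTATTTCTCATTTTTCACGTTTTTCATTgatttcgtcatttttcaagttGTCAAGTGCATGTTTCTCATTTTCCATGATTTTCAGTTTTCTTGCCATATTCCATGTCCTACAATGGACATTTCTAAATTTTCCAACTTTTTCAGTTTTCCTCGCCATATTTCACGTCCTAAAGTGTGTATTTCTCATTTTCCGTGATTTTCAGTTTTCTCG
Vmn1r-ps2: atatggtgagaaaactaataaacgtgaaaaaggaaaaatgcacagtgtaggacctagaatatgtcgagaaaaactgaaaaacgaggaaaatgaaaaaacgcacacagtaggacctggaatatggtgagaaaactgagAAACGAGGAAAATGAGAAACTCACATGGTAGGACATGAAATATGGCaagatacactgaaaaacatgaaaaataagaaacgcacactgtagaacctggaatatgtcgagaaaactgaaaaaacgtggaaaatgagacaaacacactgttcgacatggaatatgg
AY036118: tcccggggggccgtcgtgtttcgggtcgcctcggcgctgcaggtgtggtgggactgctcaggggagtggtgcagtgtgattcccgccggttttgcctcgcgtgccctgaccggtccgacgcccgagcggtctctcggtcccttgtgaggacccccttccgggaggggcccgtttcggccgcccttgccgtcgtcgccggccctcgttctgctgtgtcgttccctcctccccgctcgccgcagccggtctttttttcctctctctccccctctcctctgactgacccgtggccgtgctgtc
Kcnt2: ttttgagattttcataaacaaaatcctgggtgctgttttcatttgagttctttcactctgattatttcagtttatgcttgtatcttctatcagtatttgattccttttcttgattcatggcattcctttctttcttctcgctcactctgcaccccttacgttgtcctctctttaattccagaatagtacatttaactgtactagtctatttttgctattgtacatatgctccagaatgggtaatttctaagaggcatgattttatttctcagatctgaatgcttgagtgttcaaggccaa
Capitals make up 86.3% of the bases from Gm10801, 90.7% of those from Gm10800, 90.0% of those from Gm10722 and 15.3% of those near Vmn1r-ps2. Single 36-base stretches of the Gm10801 and Gm10800 windows occurred up to 71 times in the assembly, and those of the Gm10722 window up to 95 times. The stretch near AY036118 stands apart in its base composition, with 71% GC in its window, against 34.4 to 36.6% in the windows of the other 5.

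Windows high in IgG were also high in anti-FLAG, and the more so the higher the IgG count. The 1523 windows held 24209 anti-FLAG and 30351 IgG tags in sum. The anti-FLAG mean was 15.9 tags per window (exact Poisson interval 15.7 to 16.1) with a median of 7 and a range of 0 to 224, which is 8.53 times the autosomal mean, and the IgG mean was 19.9 with a median of 13 and a highest count of 222. In the other windows the means were 1.86 anti-FLAG and 1.86 IgG tags. Just inside the threshold, the 638 windows with 12 IgG tags had a mean of 6.21 anti-FLAG tags, and just outside it the 1546 windows with 11 IgG tags had 5.56.

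The rise of anti-FLAG with IgG ran through the whole range and was steeper at high IgG counts. Mean anti-FLAG tags were 1.07 at 0 IgG tags, 1.98 at 2, 2.61 at 4 to 5, 4.15 at 8 to 9 and 4.91 at 10. Within the chosen windows they were 6.58 at 13 IgG tags (286 windows), 8.39 at 14 to 15 (203), 14.4 at 16 to 19 (90), 35.1 at 20 to 49 (199) and 78.4 at 50 to 222 (107). Within the chosen windows anti-FLAG tags were thus fewer than IgG tags on average up to 19 IgG tags. From 20 on they were slightly more, with 15361 anti-FLAG against 14522 IgG tags in 306 windows. Near AY036118, 13 neighbouring windows with 15 to 124 IgG tags each held 1542 anti-FLAG and 679 IgG tags, an excess of similar size. At least as many anti-FLAG as IgG tags were found in 308 of the 1523 windows, 20.2%, a share that the choice by IgG tags lowers. The median GC of windows moved with the IgG count too, at 42.8% with 0 IgG tags, 38.6% with 12 and 42.0% with 50 or more, and its part in these values was not tested.

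**Figure D1:**
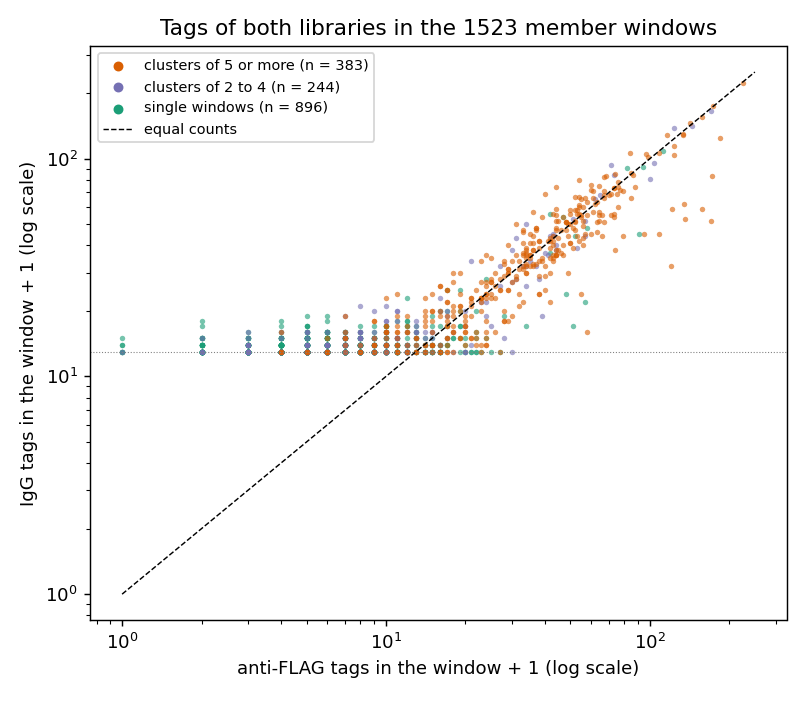
Anti-FLAG tags (x axis) against IgG tags (y axis) in each of the 1523 windows, both as counts plus 1 on log scales, coloured by whether the window lay in a cluster, with a dashed line at equal counts and a dotted line at the threshold. Of the 306 windows with 20 or more IgG tags, 289 lie within 2-fold of the line of equal counts, and 9 of the 13 with more than 2-fold as many anti-FLAG tags are nearest to AY036118, while those with 12 or 13 IgG tags spread from 0 to 29 anti-FLAG tags.

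Along the chromosomes the windows were either strongly grouped or alone. Windows whose starts lay within 10 kb of each other were joined, which gave 896 windows alone (58.8%), 105 clusters of 2 to 4 windows (244 windows), 8 of 5 to 9 (46 windows), 8 of 10 to 15 (88 windows) and 3 larger ones with 249 windows, 16.3% of all. The windows fell in 596 of 2482 bins of 1 Mb, and the 3 fullest bins held 268 of them, 17.6%. A further 343 bins held 1 window each.

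The 383 windows in clusters of 5 or more had nearly equal tags in the libraries, and the 896 windows alone did not. In the clusters the mean was 37.8 anti-FLAG (37.1 to 38.4) and 35.9 IgG tags, a ratio of 1.05. The 13 windows near AY036118 among them held 1542 and 679 tags, a larger excess of anti-FLAG than that of all 383 together. Windows alone had a mean of 6.91 anti-FLAG (6.74 to 7.08) and 13.3 IgG tags, a ratio of 0.519. Windows in clusters of 2 to 4 lay between, with 14.6 and 19.04 tags. Because windows were chosen for at least 12 IgG tags, a ratio below 1 is set in part by the choice where counts lie near that minimum, as in windows alone with a median of 12 IgG tags, and the ratios are a description. In the 383 clustered windows 21.2% of IgG tags stood at a position and strand that also held an anti-FLAG tag, against 3.63% in windows alone and 0.342% in windows outside the 1523. Sharing of positions also depends on how densely a window is filled. Each position and strand holds at most 1 tag per library, which limits the counts of dense windows. The part of this limit in the ratios was not tested. Assembly gaps of at least 1000 bp lay within 100 kb of 78.3% of the clustered windows and of 1.56% of those alone, against 1.31% of all windows.

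The level around the windows differed in the same way. Around windows in clusters of 5 or more the mean density within 250 bp of the centre was 20.1 times the autosomal mean in anti-FLAG and 19.2 times in IgG, and at 4 to 5 kb it was still 12.7 and 12.1 times. Around windows alone the anti-FLAG density was 3.83 times the autosomal mean within 250 bp, 2.73 times at 250 to 750 bp, 2.20 times at 1 to 2 kb and 1.82 times at 4 to 5 kb. The IgG density there was 7.35, 2.55, 1.84 and 1.69 times its mean, of which the first value is set by the choice. Outside the windows themselves both libraries declined with distance, and anti-FLAG stood above IgG at each of these 3 distances. By definition, no other window within 10 kb of a window alone reached 12 IgG tags. The choice thus limits the IgG values at these distances and sets no such limit on anti-FLAG tags, so their difference is a description.

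**Figure D2:**
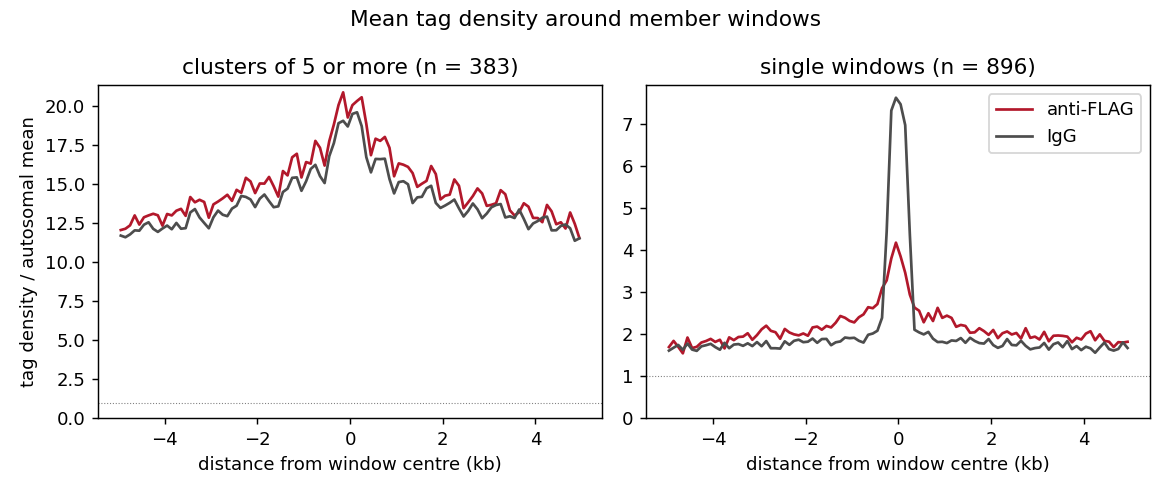
Mean tag density per 100 bp, as a multiple of the autosomal mean, against distance from the window centre in kb, for 383 windows in clusters of 5 or more (left) and 896 windows alone (right), anti-FLAG in red and IgG in grey, with a dotted line at 1. The libraries run together around clustered windows, whereas around windows alone the IgG spike of 7.35 times the mean stands above the anti-FLAG rise of 3.83 times. The y axes differ between the panels.

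All windows of the 3 largest clusters lay within 100 kb of an assembly gap, and the libraries were close to each other in each. The largest, at chr11:3027001-3100000, held 138 windows with 6208 anti-FLAG and 6031 IgG tags, 8 to 84 and 12 to 105 per window. Sfi1 (ENSMUSG00000023764.11), known in yeast and human as a centrin-binding protein of the spindle pole body or centrosome, covered 120 of its windows, and Drg1, the gene of a GTP-binding protein, covered 25. The median window of this cluster had 6.4% of 36-base stretches found more than once. Its level was far above that of its 1-Mb bin without these windows, at 1.24 times the median bin in anti-FLAG and 1.01 times in IgG.

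The second cluster, at chr8:19918001-19987500, held 63 windows with 1133 anti-FLAG and 1244 IgG tags. They lay in the transcript gene 2610005L07Rik and, in 27 windows, in the predicted gene Gm15319, and a median of 87.6% of their 36-base stretches were found more than once. The third, at chr9:3000001-3038500, held 48 windows with 1918 anti-FLAG and 1912 IgG tags, 47 of them in the long noncoding RNA gene Gm16869. Here the sequence matched itself at a distance of 234 bp with up to 93.99% identity, and 41 windows had at least 60% identity at some short distance. Mouse gamma satellite, the main repeat of mouse centromeres, is built of units of 234 bp. In this cluster 55.3% of IgG tags shared position and strand with an anti-FLAG tag.

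Of the 8 clusters with 10 to 15 windows, 7 had ratios between 0.607 and 1.21 and 1 stood apart. The cluster of 15 windows at chr12:116837001-116856500, near Ighv1-67 among the variable segments of the immunoglobulin heavy chain, held 173 anti-FLAG and 235 IgG tags. That near AC191865.1 at chr16:3233501-3253500 held 88 and 145 in 10 windows, that near Gm4694 at chr9:123832501-123845000 held 329 and 342, and that near Pisd-ps1 at chr11:3000001-3005000 held 449 and 467. More anti-FLAG than IgG tags were found near Gm5466 at chr2:181652001-181667500 (297 against 265) and at chr18:3004501-3011000 (370 against 356). The nearest start site to the latter, 112715 bp away, was that of Vmn1r238, a vomeronasal receptor gene. Neither library was favoured throughout, and the anti-FLAG mean was at least 8.80 tags per window in each of these clusters.

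Among clusters of 10 or more windows, those at Hjurp and AY036118 had the most anti-FLAG relative to IgG. At Hjurp, in human the chaperone that deposits the centromeric histone CENP-A, 10 windows at chr1:90155501-90180000 held 174 anti-FLAG and 144 IgG tags in a bin raised to 1.83 and 1.58 times the median bin. At chr17:39979501-39986000, where GENCODE M1 places the pseudogene AY036118 (ENSMUSG00000045999.8), 13 windows held 1542 anti-FLAG and 679 IgG tags, a ratio of 2.27. The median GC of these 13 windows was 63.4%, and 0.459 and 0.605 times the median bin were found in the rest of the bin. RefSeq lists Rn18s-rs5, a pseudogene named after 18S ribosomal RNA, next to AY036118 in its annotation of another build, and whether these tags come from ribosomal DNA was not tested. The other 7 clusters of this size had a median GC of 33.2 to 45.1%, and the part of GC in the ratio was not tested.

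The 10 windows with most IgG tags and the 10 with most anti-FLAG tags shared 6 windows. The Gm10801 window shown above had 224 anti-FLAG and 222 IgG tags, and the Gm10800 window shown had 173 and 173. In the same 5500 bp of chromosome 2, 9 windows held 1077 anti-FLAG and 1081 IgG tags, although the rest of that 1-Mb bin stood at 0.639 and 0.808 times the median bin. The window at chr15:74917001-74917500, 24864 bp from the start of the monocyte antigen gene Ly6c2, had 170 and 164, and the window of Gm10722 had 141 and 145. The window at chr9:35112501-35113000, near Gm5614, had 143 and 140, that at chr12:75905001-75905500, far from its nearest gene Kcnh5, had 122 and 137, and that near Vmn1r-ps2 had 132 and 129. None of these windows differed between the libraries by more than 15 tags. The windows with most anti-FLAG tags that were not among them all lay near AY036118, with 184 against 124, 171 against 82, 170 against 51 and 157 against 58 tags.

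Sequence of the chromosome 9 cluster was also found in some of the other high windows. There were 2154 different 12-base words that occurred at least 5 times in the cluster, counted on both strands, and in 83 of the 1523 windows at least 10% of all 12-base words were among these. Of these, 35 lay outside the cluster, and the 83 windows were spread over 10 chromosomes. The others were the 48 windows of the cluster itself, whose words made the list, so their inclusion is set by the method. Among every 500th window of the grid, 1 of 9587 reached that share. The share was 84.7% in the Gm10722 window, which belongs to the cluster, so that its own words helped to make the list. Outside the cluster it was 74.2% in the Gm10800 window, 31.1% near Vmn1r-ps2, 26.8% near Gm5614 and 22.7% in the Gm10801 window. It was 34.8% in the window far from its nearest gene Kcnh5, and 0% near Ly6c2. The 83 windows held 4528 anti-FLAG and 4599 IgG tags, a ratio of 0.985, and 15.2% of all IgG tags of the 1523 windows. Of these tags, 1918 anti-FLAG and 1912 IgG tags lay in the cluster itself, and the 35 windows outside it were not summed separately. The 83 windows were nearly balanced between the libraries, like the clusters as a whole.

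Exactly repeated sequence was common in some of the clusters and rare in windows alone. In clusters of 5 or more, 61.6% of windows had at least 10% of their 36-base stretches found more than once and 32.9% had at least 50%, against 5.80% and 1.00% of windows alone. The clusters differed in this. The median window had 87.6% in the second largest and 88.8% in the third largest cluster, but 6.4% in the largest, 3.4% at AY036118 and 0% at Hjurp. Over all 1523, at least 10% were found more than once in 372 windows, 24.4%, against 27.9% of every 500th window, and at least 50% in 162 windows, 10.6%, against 11.5%. Of the tags in the windows, 7.36% of anti-FLAG and 6.31% of IgG tags had a 36-base sequence found more than once, against 0.173% and 0.184% in every 500th window. In the 162 windows rich in repeated stretches these shares were 27.3% and 29.6%. The treatment of tags with several matches is not given in the sources used here. In every 500th window such tags were few although repeated stretches were common, so most of them were absent from the deposited positions. The part of this in the repeat shares of clusters and of windows alone was not tested. On average, the 372 windows had 28.6 anti-FLAG and 29.6 IgG tags, and the 1151 others 11.8 and 16.8.

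Windows alone were mostly free of exactly repeated 36-base stretches, and the level of their chromosome segment was often raised. Repeats whose copies differ in sequence were not counted. Of the 896, 705 (78.7%) had 0 repeated 36-base stretches, against 53.7% of every 500th window, and 234 (26.1%) lay in a 1-Mb bin raised at least 1.5-fold over the median bin in both libraries, against 3.65% of other windows. The median bin of windows alone stood at 1.41 times in anti-FLAG and 1.37 times in IgG. Windows in clusters of 5 or more lay in raised bins in 15 of 383 cases, 3.92%. All these bin levels leave the 1523 windows out. Over all 1523, 314 windows (20.6%) lay in raised bins and 890 (58.4%) had raised flanks at 1 to 10 kb, against 8.24% of other windows for the flanks. Windows without a level count as not raised in these shares. Of the 1523, these were 23 for the bins and 105, all in clusters of 5 or more, for the flanks. Extra copies and other properties of a whole segment cannot be told apart from these levels.

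The number of windows per Mb climbed with the anti-FLAG level of the bin, which was not used in the choice. Windows alone with under 10% of repeated stretches numbered 0.0270 per Mb in bins at 0.5 to 0.75 times the median bin, 0.0958 at 0.75 to 1, 0.265 at 1 to 1.25, 0.724 at 1.25 to 1.5, 1.43 at 1.5 to 1.75 and 3.53 in the 40 Mb above 1.75. All chosen windows with a bin level numbered 0.121, 0.398, 0.566, 0.876, 1.89 and 5.13 per Mb in the same order, and 0.754 per Mb in bins under 0.5. Of the 1523 windows, 23 had no bin level and are left out here. That lowest class held 51 windows, of which 0 were alone with under 10% of repeated stretches. IgG and anti-FLAG levels of a bin share the same cells and genome, and any rise of the IgG level raises the number of windows past a fixed threshold.

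**Figure D3:**
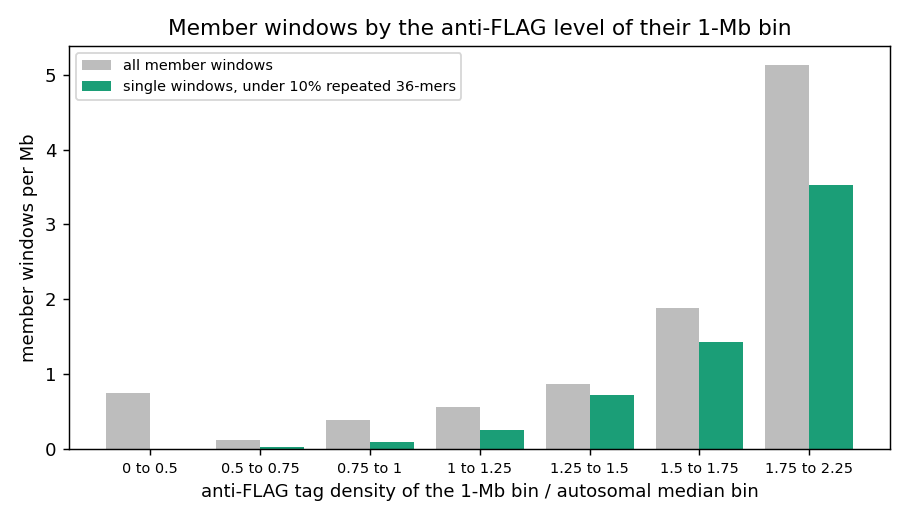
Number of windows per Mb (y axis) by the anti-FLAG level of their 1-Mb bin, as a multiple of the autosomal median bin (x axis). All chosen windows are in grey and windows alone with under 10% of repeated 36-base stretches in green. The 23 of the 1523 windows without a bin level are left out. The green bars climb from 0 in the lowest class to 3.53 per Mb in the highest, while the grey bars have a second, smaller rise to 0.754 per Mb in bins below 0.5.

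Chromosome 19 stood first. It held 207 of the 1523 windows, 3.56 per Mb, of which 138 were alone with under 10% of repeated stretches, and its other windows averaged 1.55 times the median bin in anti-FLAG and 1.496 times in IgG. Chromosome 8 came next with 251 windows, 2.01 per Mb, at 1.30 and 1.30 times. Chromosome 11 had 177 windows, but 148 of them were in clusters of 5 or more. Chromosome 7, with the lowest levels at 0.796 and 0.770 times, had 12 windows, 0.0846 per Mb. Long genes of chromosome 19 and chromosome 8 were covered by several windows with fewer anti-FLAG than IgG tags, which the choice sets in part. The following were picked after their values were seen. Gnaq, the gene of a G protein alpha subunit, had 9 windows with 44 anti-FLAG and 119 IgG tags. Prkg1, the gene of a cGMP-dependent protein kinase, had 8 with 45 and 102, and Cdh11, the gene of a cadherin of mesenchymal cells, had 5 with 27 and 61. Median anti-FLAG counts in the windows of Gnaq, Prkg1 and Cdh11 were 4, 4 and 5, above the autosomal mean of 1.86. The bins of Gnaq stood at 1.83 and 1.85 times, those of Prkg1 at 1.83 and 1.95 and those of Cdh11 at 1.99 and 2.12 times the median bin.

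A window was called for anti-FLAG where its tags exceeded the larger of the autosomal mean and the mean of the 20 surrounding windows (exact one-sided Poisson test in the anti-FLAG library alone, adjusted by Benjamini-Hochberg over 4787079 windows, adjusted p under 0.05). Of the 1522 windows tested, 201 were called, 13.2% (exact binomial interval 11.5 to 15.0), against 0.211% of all windows, and 519 (34.1%) had an unadjusted p under 0.05, against 4.08% of all windows. The smallest count called was 10 tags. The calls made up 83 of 383 windows in clusters of 5 or more, 53 of 244 in clusters of 2 to 4 and 65 of 896 alone, which is 21.7%, 21.7% and 7.25%. In long clusters the surrounding windows are raised themselves, at a mean of 27.3 anti-FLAG tags, so that a window there is compared with its own cluster. With the autosomal mean as the only background, 49.5% of the tested windows were called, against 1.41% of all windows. The share of chosen windows called also moved with the IgG minimum, at 5.52% with 10 tags, 32.1% with 15 and 39.3% with 20, and was 8.52% in windows with under 10% of repeated stretches. It was 12.6% of the chosen windows against 0.186% of all without a tag shift, 13.5% against 0.214% on a grid from position 250, 12.3% against 0.186% with a background also over 200 windows and 13.2% against 0.221% with a background by GC. In windows of 1000 bp with 24 or more IgG tags the shares were 48.2% and 0.578%.

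The 65 called windows alone stood over low surroundings in both libraries. Since these were chosen by IgG and then by anti-FLAG counts, their levels are a description. They had means of 25.7 anti-FLAG and 21.4 IgG tags, where the surrounding windows had 2.81 and 2.51. Their mean density was 15.3 times the autosomal mean in anti-FLAG and 12.4 times in IgG within 250 bp, 3.20 and 2.41 times at 250 to 750 bp, and 1.30 and 1.27 times at 4 to 5 kb. Repeated 36-base stretches reached 10% in 29.2% of them, and 25.3% of their IgG tags shared a position and strand with an anti-FLAG tag. The following were picked after their values were seen. An intronic window of Cdk5rap2, a centrosome gene, at chr4:70039001-70039500 had 111 anti-FLAG and 107 IgG tags and 67 shared positions, with surroundings at 1.10 anti-FLAG tags. One in an intron of Kctd16, the gene of a GABA-B receptor subunit, had 93 and 91 tags. At chr11:108873001-108873500, near the pseudogene Gm11668, the counts were 90 and 44 with a GC of 58.4%, and at chr5:147072501-147073000, in Cdk8, the gene of a Mediator kinase, 56 and 21 with a GC of 53.0%.

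Most of the lowest anti-FLAG counts were found in windows alone. Of the 1523 windows, 157 had at most 2 anti-FLAG tags, of which 137 were alone and 20 in clusters of 2 to 4. The Kcnt2 window shown above had 0 anti-FLAG and 14 IgG tags, while its surrounding windows had a mean of 4.00 anti-FLAG tags. A window in an exon of 2810474O19Rik had 0 and 13, and an intronic window of Upf2, a gene of nonsense-mediated decay, had 0 and 12. At these counts a difference between libraries was not tested per window, because the windows were chosen for their IgG tags. Over all 896 windows alone the anti-FLAG mean of 6.91 was 1.80 times that of the surrounding windows, 3.84.

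Windows with 12 or more tags in anti-FLAG were a larger set that met the IgG set only in part. They numbered 12626, or 0.264% of all windows, and 493 windows had 12 or more in both libraries, which is 3.90% of the anti-FLAG set and 32.4% of the IgG set. Windows high in anti-FLAG lay within 1 kb of a start site in 20.5% of cases and had a median GC of 45.6%, whereas the IgG set stood at 11.95% and 39.4%, and other windows at 2.67% and 41.8%.

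Tags stood on both strands in most windows. At least 25% of IgG tags lay on each strand in 1391 windows, 91.3%, and the same held for anti-FLAG in 459 of the 493 windows with 12 or more anti-FLAG tags, 93.1%. The share that an even random split would give was not computed, so these values are a description. Windows tended to lean to the same strand in both libraries. Across 283 windows with at least 20 tags in each library, the plus-strand share ran from 0 to 95.7% in anti-FLAG and from 3.23 to 95.2% in IgG, with a Pearson correlation of 0.739, and of 0.812 across 90 windows with at least 50 tags. These windows share sequence and neighbours, and each position and strand holds at most 1 tag per library, so the correlation is a description. The larger part of the tags lay on the same strand in both libraries in 188 of the 283 windows and on opposite strands in 71, and in 24 a library was split evenly. The Gm10800 window had 126 of 173 anti-FLAG and 125 of 173 IgG tags on the plus strand. The window far from its nearest gene Kcnh5 had 38 of 122 and 44 of 137, whereas the Gm10722 window had 72 of 141 and 52 of 145. The mean 5′ end of minus-strand tags lay at a higher coordinate than that of plus-strand tags, by a median of 119 bp in anti-FLAG (487 windows) and 134 bp in IgG (1521 windows), where the tag shift alone sets 144 bp.

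**Figure D4:**
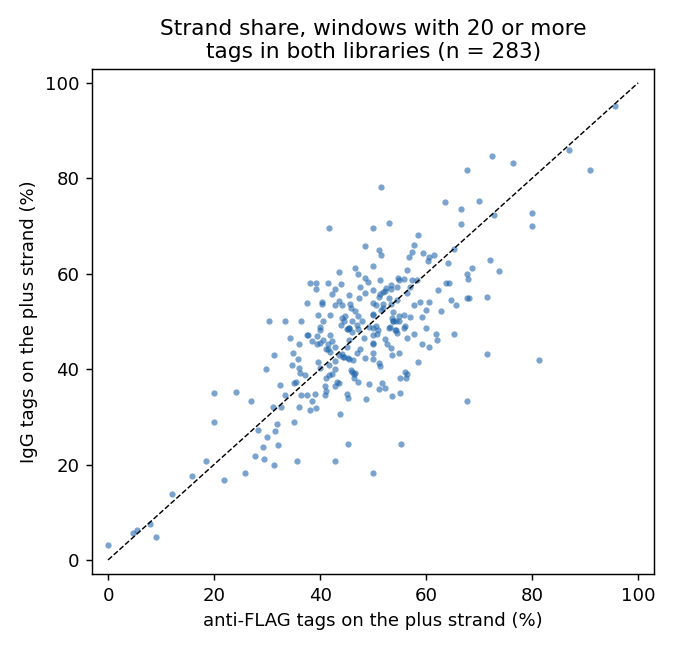
Share of tags on the plus strand in anti-FLAG (x axis, %) and in IgG (y axis, %) for the 283 windows with at least 20 tags in both libraries, 1 point per window, with a dashed line at equal shares. Points lie along the line at both ends, down to 0 and 3.23% and up to 95.7 and 95.2%.

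Start sites lay near the windows more often than near other windows, both in clusters and alone. By GENCODE M1, a transcription start site (TSS) lay within 1 kb of the centre in 182 windows, 11.95% (exact binomial interval 10.4 to 13.7), against 2.67% of other windows. Otherwise 84 windows (5.52%) lay in exons, 757 (49.7%) in introns and 500 (32.8%) between genes, against 2.86%, 37.4% and 57.1%. A TSS was within 1 kb of 17.8% of windows in clusters of 5 or more, 7.38% in clusters of 2 to 4 and 10.7% alone (8.77 to 12.9). With protein-coding genes alone the share was 8.93% of the 1523 windows, against 1.69% of all windows. In the cluster of chromosome 9, 35 of 48 windows had such a TSS, and in that of Sfi1 17 of 138, so part of these TSSs belong to predicted genes annotated in repeats.

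**Figure D5:**
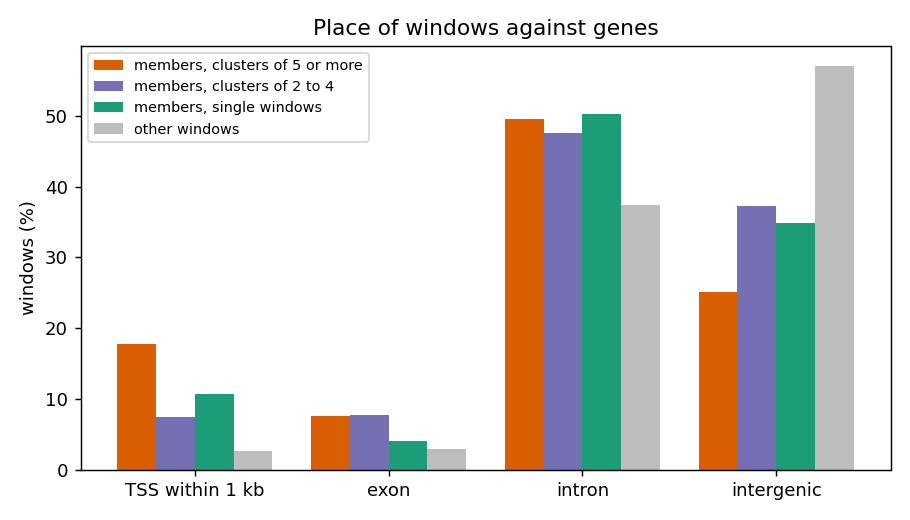
Share of windows (y axis, %) with a TSS within 1 kb of the centre, else in an exon, else in an intron, else between genes, for members in clusters of 5 or more (n = 383), in clusters of 2 to 4 (n = 244) and alone (n = 896), beside the other windows in grey. All 3 sets exceed the other windows at start sites and fall below their 57.1% between genes.

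Windows near start sites with few repeated stretches had modest anti-FLAG counts. The 92 windows within 1 kb of a TSS that were alone and had under 10% of repeated stretches had means of 8.14 anti-FLAG and 12.9 IgG tags, with surrounding windows at 3.83 anti-FLAG tags, and 11 of them (11.96%) were called, against 1.65% of all windows within 1 kb of a TSS. Over all windows alone with under 10% of repeated stretches, the 225 in raised bins had 6.03 anti-FLAG and 12.7 IgG tags and 7 were called (3.11%), while the 619 others, of which 4 had no bin level, had 6.58 and 13.2 and 39 were called (6.30%). TSSs were within 1 kb of 19 of the 225 and of 73 of the 619, 8.44% and 11.8%.

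Few genes of chosen lists were near a window. Of the 21281 protein-coding autosomal genes, 117 (0.55%) had a window within 1 kb of a TSS and 344 (1.62%) within 5 kb. Within 5 kb there were 2 of 29 fibroblast and matrix genes, 3 of 27 actin cytoskeleton and adhesion genes and 2 of 26 immediate early genes. There were 0 of 30 cytosolic ribosomal protein genes, 0 of 28 mitosis and kinetochore genes, 0 of 19 liver, blood and muscle genes and 0 of 18 genes of neurons and sense organs, of which the last 2 lists stand for genes silent in fibroblasts. With counts this small, the lists are described by their members only.

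Among these genes, the window of Myc alone was called for anti-FLAG. Myc, the growth-regulating transcription factor gene, had 19 anti-FLAG and 12 IgG tags in a window centred at -1696 bp from its TSS (exact Poisson test with Benjamini-Hochberg adjustment, adjusted p = 0.000627). Col3a1, a fibrillar collagen gene, had a window 367 bp downstream of its TSS with 20 and 13 tags (adjusted p = 0.0882 in the same exact test) and another 3867 bp downstream with 2 and 12. Dcn, the gene of the matrix proteoglycan decorin, had 3 windows with 9 and 12, 11 and 13, and 10 and 12 tags. In the actin list Cald1, the caldesmon gene, had 9 and 12, Vcl, the vinculin gene, 4 and 12, and Acta2, the smooth muscle actin gene, 3 and 12. Ier5, an immediate early gene, had 6 and 12. The adjusted p of the windows other than those of Myc and of Col3a1 at 367 bp was 1 in the same exact test, and the bins of Col3a1, Acta2, Cald1 and Myc were raised at least 1.55-fold in both libraries.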

How the data were processed

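Tag positions of 1 anti-FLAG and 1 IgG library were used as the authors deposited them, with the start, end and strand of every tag. A score, also in the deposited files, was constant at 512 and was left aside. Aligner, genome build and filters were not given in the sources used here. Tag ends fitted the chromosome lengths of NCBIM37 except for 4 anti-FLAG and 2 IgG tags, and GENCODE M1 was used for genes. The lists, windows and tests were chosen with earlier results of these data known. Analysis was in Python 3.11.15 with NumPy 2.4.6, SciPy 1.17.1, pandas 2.3.3 and Matplotlib 3.10.9, and the call was tested on simulated data. Both strands of the whole genome sequence were searched for 36-base copies. Bin and flank levels are relative to the autosomal median bin, at 1.85 anti-FLAG and 1.82 IgG tags per window. Windows were named by rank, 10 by IgG and 10 by anti-FLAG tags, clusters by number of windows, with ties at 10 windows kept, and list genes by a window within 5 kb of a TSS. The Kcnt2 window was taken as that with fewest anti-FLAG tags. The windows of 2810474O19Rik and Upf2, among those with fewest anti-FLAG tags, and that next to Gm10222 were picked after their values were seen. Other names are marked in the text as picked in that way. The genome sequence carries no repeat masking, so masked shares were not computed. Alternatives changed the tag minimum, shift, grid, window size, filters, background, cluster distance and gene set.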

Additional observations from a re-analysis of the deposited data

Results flagged for a closer look

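Outside the windows described, the mitochondrial genome had more tags in the anti-FLAG than in the IgG library. It held 4551 anti-FLAG and 3363 IgG tags, which is 491 and 361 for every 1000000 tags of each library. This was noted because the autosomal comparison does not use mitochondrial tags and the level exceeds that of the control library. With 1 library per antibody the difference has no replicate check.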

How the results depend on the processing

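Among 83 values from 18 alternatives, 37 stayed within the counting interval of the reported value (counts of windows within 1.5 times) and 46 moved. Changes of direction were not assessed. No paired analysis was possible because there was 1 library per antibody. With a minimum of 10 tags there were 6753 windows, with 7.54 anti-FLAG tags on average, 5.52% called, 8.68% near a TSS and 36.96% within 10 kb of another. With 15 tags there were 459, with 37.7 tags, 32.1% called, 15.7% near a TSS, 77.8% grouped and 6.10% in raised bins. With 20 tags the values were 306, 50.2, 39.3%, 17.3%, 93.5% and 0.654%, with 89.5% balanced by strand. Windows of 1000 bp with 24 tags numbered 249, with 69.1 tags, 48.2% called, 96.4% balanced, 14.9% near a TSS, 80.3% grouped and 4.02% in raised bins. Without a tag shift the mean was 16.1 and 93.6% were balanced, and on a grid from position 250 these were 15.7 and 93.9%. In windows with under 10% of repeated stretches the mean was 11.8, with 8.52% called, 92.7% balanced, 25.5% grouped and 26.1% in raised bins. Without chromosome 19 the mean was 17.2 and 14.1% lay in raised bins. Without clusters of 5 or more, an alternative chosen after seeing the data, the mean was 8.55, with 10.4% called, 10% near a TSS, 21.4% grouped and 26.2% in raised bins. Against the autosomal mean alone 49.5% were called. Cluster distances of 1 kb and 100 kb gave 29.9% and 59.3% grouped. A TSS of a protein-coding gene was near 8.93%, and any TSS within 2.5 kb near 23.9%, against 6.41% of all windows. The causes of these shifts were not tested. A strand filter could not be applied to the strand share itself. Depth limits single windows: near the threshold the counting error of 12 tags is large beside the difference from 11.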

Other observations

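On chromosome X, which the windows described do not cover, 59 windows of the same grid had 12 or more anti-FLAG tags and 21 had 12 or more IgG tags. Among the autosomal windows high in IgG, 1 at chr1:24619501-24620000, next to the predicted gene Gm10222, had 87.2% of its 36-base stretches identical to the mitochondrial genome. It held 18 anti-FLAG and 16 IgG tags, with 6 and 2 of them on the plus strand, while its surrounding windows had a mean of 1.55 anti-FLAG tags.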
